A study of Saccharomyces cerevisiae with 2 samples.

Results

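The actin cytoskeleton of budding yeast in meiosis was examined through 30 genes that encode actin, the proteins that turn its filaments over, the proteins of cortical actin patches, the Arp2/3 complex, the proteins of actin cables and the myosins. The genes were listed by name, and all 30 were found among the 6592 named genes of the table. Ribosome-protected mRNA fragments (footprints) were sequenced by ribosome profiling from 2 SK1 cultures that had spent 4 hours in sporulation medium. The groups were wild type (WT) and a gim3 deletion (gim3∆), with 1 library each, both of the SK1 background, a strain that sporulates efficiently. GIM3 encodes a subunit of prefoldin, and no other allele or agent is given in the labels. With 1 library per genotype there was no replicate error and no test between genotypes, so values are those of these 2 libraries and each interval covers counting error only.

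Actin monomers join into polar filaments whose assembly and loss are set by partner proteins. Profilin readies monomers for growth, cofilin severs old filaments, and capping protein stops growth at the fast end. In yeast the filaments form patches, where the Arp2/3 complex builds branched networks that drive endocytosis, and cables, which formins assemble and along which type V myosins carry cargo. Prefoldin binds newly made actin and tubulin and passes them to the chaperonin CCT, and in yeast meiosis cables are known to move chromosomes during prophase.

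The WT library held 40433177 counted footprints and the gim3∆ library 27864644. Levels are given in RPM, reads per 1000000 reads of the library. GIM3 itself had 34.9 RPM in the WT library and 0.108 RPM (3 reads) in the gim3∆ library. Of 21 measured middle meiotic marker genes, which act around the meiotic divisions and spore formation, 20 were at least 2-fold higher in the gim3∆ library. Of all genes compared, 6.35% were. That list took 0.391% of footprints in the WT library (exact 95% interval 0.389 to 0.393) and 3.34% in the gim3∆ library (3.33 to 3.34). The 16 early meiotic markers took 2.18% and 2.08%, with 0 past 2-fold in either direction (6.35% higher and 8.50% lower among all genes compared). The 13 markers of vegetative G1 and budding summed to 157 and 177 RPM. The 13 haploid and mating markers summed to 119 and 303 RPM, of which STE18 alone had 9.77 and 124 RPM. Of the 8 measured haploid and mating markers, 6 were higher in the gim3∆ library and 2 lower, whereas 64.5% of all genes compared were lower. None of the listed markers was at 0. The part of this difference in meiotic markers in the results below was not tested.

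As a whole the actin genes were slightly lower in the gim3∆ library (median log2 ratio -0.31), as was the median of all genes compared (-0.20). The formin gene BNR1 was a single large exception. Together the 30 genes took 0.909% of footprints in the WT library (0.906 to 0.912) and 0.744% in the gim3∆ library (0.741 to 0.747), 1.22-fold lower. All 30 passed the filter used for comparison, a mean of at least 10 RPM over both libraries, which 4916 genes passed. The lowest mean among them was 41.3 RPM, from MYO1, and each member had at least 2744 reads over both libraries. Both samples are bulk footprint libraries, and no mRNA library is among them. Fewer cells expressing a gene, less of its mRNA and less of its translation per cell therefore cannot be told apart.

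By the rule of size used here, at least 2-fold on the log2 ratio of RPM after adding 1, BNR1 was the 1 member past 2-fold (3.33% of members, against 6.35% of the 4916 genes higher by that rule). None of the 30 was at least 2-fold lower, against 8.50% of all genes. At 1.5-fold, 6 of the 30 members were lower, against 22.6% of all genes, namely COF1, SRV2, ABP1, SLA2, PAN1 and TPM2. Only BNR1 was at least 1.5-fold higher (3.33%, against 12.0% of all genes). The share of members past 1.5-fold in the lower direction was thus near the background of the whole table.

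The median log2 ratio of the 30 genes, gim3∆ over WT, was -0.31, and that of all 4916 genes was -0.20, so the members' median lay 0.10 below the median gene (centred value -0.10). Of the 30 log2 ratios 24 were below 0 (80.0%, against 64.5% of all genes). Counted from the median gene, 18 members lay below it and 12 above. Centred on that gene, BNR1 and MYO1 were at least 1.5-fold higher and SRV2 and ABP1 at least 1.5-fold lower, 2 members in each direction (17.0% and 13.8% of all genes). The counting interval of the RPM ratio lay below 1 for 23 members and above 1 for 4 (58.2% and 30.2% of all genes), and it held 1 for ARP3, ARC18 and ARC19. Without BNR1 the median was unchanged at -0.31, while the mean went from -0.22 to -0.30.

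**Figure D1:**
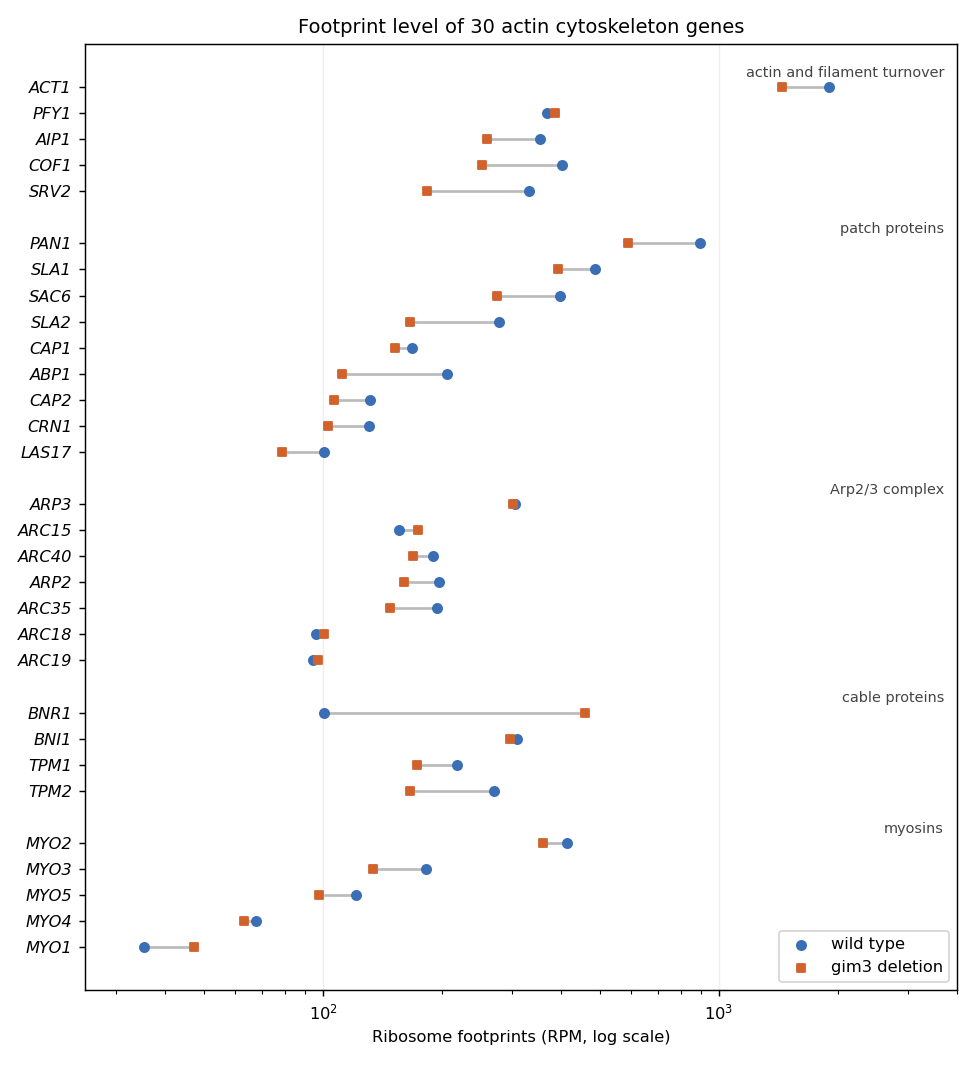
Footprint level in RPM (log scale) of each of the 30 actin genes in the WT library (circles) and the gim3∆ library (squares), with a grey line joining the values of a gene and genes grouped by role. BNR1 has the longest line, from 101 to 459 RPM, and ACT1 is the highest of the 30 in both libraries.

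ACT1, the single gene for conventional actin, stood at 1894 RPM in the WT library and 1443 RPM in the gim3∆ library, 1.31-fold lower (1.30 to 1.33). It had the highest level of the 30 genes and was 61st of the 6592 genes by RPM in the WT library and 112th in the gim3∆ library. Its log2 ratio of -0.39 was 0.19 below that of the median gene (centred value -0.19).

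Among the partners of the monomer and of the filament, the ratios were spread. COF1, which encodes cofilin, had 402 RPM in the WT library and 253 RPM in the gim3∆ library, 1.59-fold lower (1.55 to 1.64). SRV2, the cyclase-associated protein that recycles monomers released by cofilin, had 332 and 183 RPM, 1.81-fold lower (1.75 to 1.87). AIP1, which assists cofilin in disassembly, had 354 and 259 RPM, 1.37-fold lower (1.33 to 1.40). These 3 disassembly factors were therefore all lower in the gim3∆ library as deposited, as were 64.5% of all genes compared. Centred on the median gene, their log2 ratios were -0.46 for COF1, -0.65 for SRV2 and -0.24 for AIP1.

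PFY1, which encodes profilin, did not share that direction. It had 367 RPM in the WT library and 385 RPM in the gim3∆ library, a ratio of 1.05 (1.02 to 1.07). The PFY1 to COF1 footprint ratio was 1.67 times as high in the gim3∆ library as in the WT library (95% Wald interval of the read counts 1.61 to 1.73), and the PFY1 to ACT1 ratio 1.38 times as high (1.34 to 1.41). The COF1 to ACT1 ratio was 1.21-fold lower (1.18 to 1.25). The scaling of the libraries and the division by gene length cancel in the change of a pair's ratio, and 11 pairs were computed. A difference between the libraries that goes with gene length does not cancel. Genes under 600 bases had a median log2 ratio of 0.04, and those of 600 to 1500 bases -0.25. PFY1 has 590 bases and ACT1 1437, and the part of length in these pairs was not tested. The median log2 ratio of the 5 turnover genes was -0.45, or -0.24 from the median gene, the lowest of the role groups.

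All 9 patch genes were lower in the gim3∆ library as deposited, with counting intervals below 1, and 8 of the 9 lay below the median gene. Of all 4916 genes, 64.5% had a log2 ratio below 0 and 58.2% an interval below 1. ABP1, an actin-binding protein that also activates the Arp2/3 complex, was the lowest of the 30 genes. It had 206 RPM in the WT library and 112 RPM in the gim3∆ library, 1.84-fold lower (1.77 to 1.92). SLA2, which couples the endocytic coat to actin, had 277 and 166 RPM, 1.67-fold lower (1.62 to 1.73). PAN1, a coat scaffold and Arp2/3 activator, had 897 and 589 RPM, 1.52-fold lower (1.49 to 1.55).

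The other patch genes were closer to the median gene. SAC6, the bundling protein fimbrin, had 396 and 275 RPM, 1.44-fold lower (1.40 to 1.48). SLA1, the adaptor that joins cargo to the actin machinery, had 485 and 391 RPM, 1.24-fold lower (1.21 to 1.27). These were followed by LAS17, the yeast WASP homologue, at 1.28-fold lower (1.22 to 1.35), from 101 to 78.6 RPM. CRN1, which encodes coronin, was 1.27-fold lower (1.21 to 1.33), from 131 to 103 RPM.

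The capping protein subunits CAP1 and CAP2, which act as a heterodimer, had the highest ratios of the patch group. CAP1 had 168 RPM in the WT library and 152 RPM in the gim3∆ library, 1.10-fold lower (1.06 to 1.15), and it was the 1 patch gene above the median gene. CAP2 had 132 and 107 RPM, 1.23-fold lower (1.18 to 1.29). The CAP2 to CAP1 footprint ratio was 1.12-fold lower in the gim3∆ library (1.06 to 1.19). The median log2 ratio of the patch group was -0.35 (-0.15 from the median gene). The group took 0.279% of WT footprints (0.277 to 0.281) and 0.197% of gim3∆ footprints (0.196 to 0.199), and its sum was 1.41-fold lower.

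**Figure D2:**
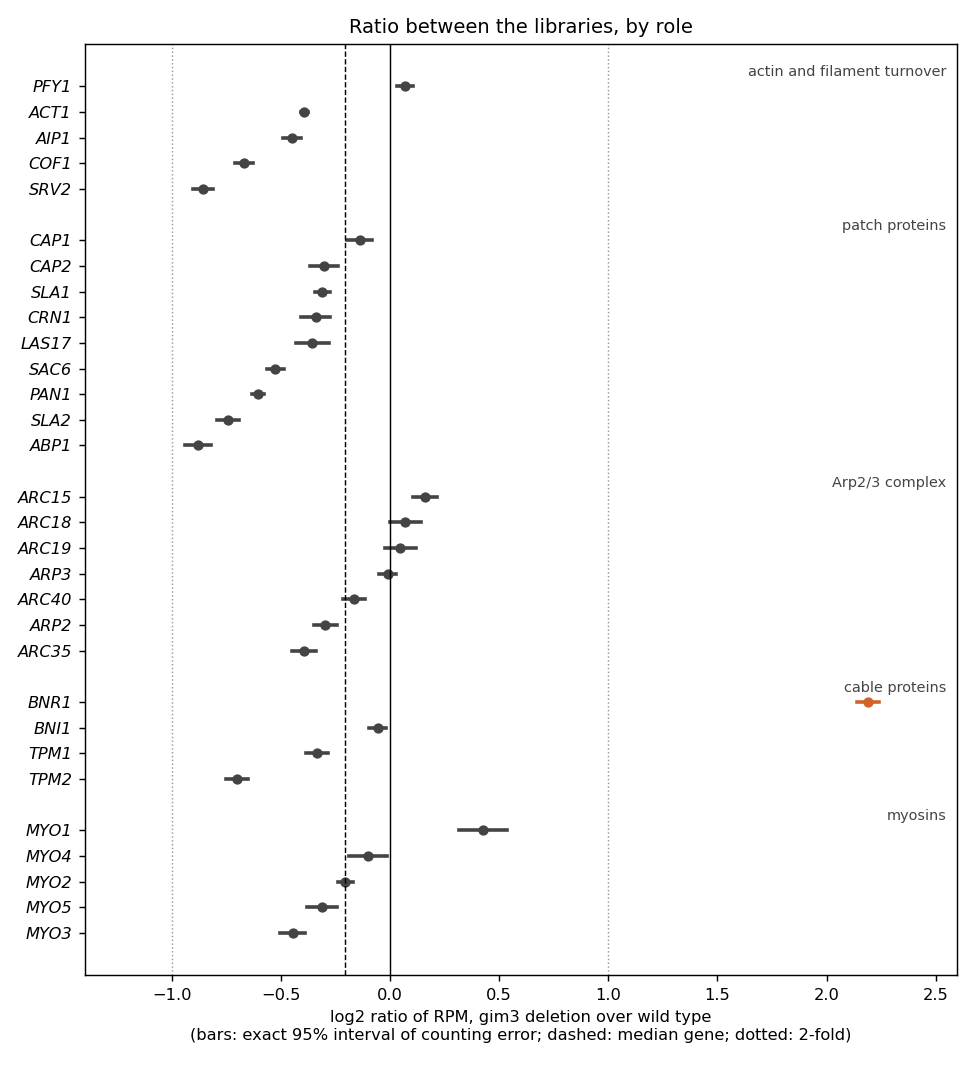
Log2 of the RPM ratio, gim3∆ over WT, for each of the 30 genes by role, without a pseudocount; bars are exact 95% intervals of counting error, the dashed line is the median of the 4916 compared genes and dotted lines mark 2-fold. BNR1 alone lies past 2-fold, all 9 patch genes lie left of 0, and the Arp2/3 subunits straddle 0.

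The Arp2/3 complex, the branched nucleator of the patch, differed little between the libraries. None of its 7 genes was past 1.5-fold, against 12.0% of all genes higher and 22.6% lower by that rule. Their summed level was 1231 RPM in the WT library and 1151 RPM in the gim3∆ library, 1.07-fold lower (1.05 to 1.08). The median log2 ratio was -0.01, which is 0.19 above the median gene, and 5 of the 7 lay above that gene. The log2 ratios of the complex and of the patch proteins it works with overlapped, running from -0.39 to 0.16 for the complex and from -0.88 to -0.14 for the patch proteins. The difference between these groups of genes was not tested.

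Within the complex the subunits fell on both sides of 1. ARC15 had 155 RPM in the WT library and 174 RPM in the gim3∆ library, a ratio of 1.12 (1.08 to 1.16), the highest of the 7. ARC18 had 95.7 and 100.5 RPM, and ARC19 had 94.3 and 97.4 RPM, with ratios of 1.05 (0.999 to 1.10) and 1.03 (0.983 to 1.09). These 3 are small subunits and have the shortest genes of the complex, 465 to 537 bases. Of all compared genes under 600 bases, 661 in number, the median log2 ratio was 0.04, against -0.25 for the 2199 genes of 600 to 1500 bases, so short genes in general stood higher in the gim3∆ library. The part of gene length in the order of the subunits was not tested.

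The actin-related subunits ARP2 and ARP3, which form the start of the new branch, differed from each other. ARP3 had 305 RPM in the WT library and 302 RPM in the gim3∆ library, a ratio of 0.992 (0.965 to 1.02). ARP2 had 197 and 160 RPM, 1.23-fold lower (1.18 to 1.27), so the ARP2 to ARP3 ratio was 1.22-fold lower in the gim3∆ library (1.16 to 1.28). ARC35 had 194 and 148 RPM and was the lowest of the complex at 1.32-fold lower (1.27 to 1.37). ARC40 had 190 and 169 RPM, 1.12-fold lower (1.08 to 1.16). The subunits with a counting interval below 1 were thus ARC35, ARP2 and ARC40 (58.2% of all genes had such an interval). Centred on the median gene, ARC35 (-0.19) and ARP2 (-0.09) lay below it and ARC40 (0.04) above it.

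Per length, the complex was fairly even. Footprint density, in RPM per kb of the gene's RefSeq length, ran in the WT library from 151 for ARP2 to 334 for ARC15, a 2.21-fold range. In the gim3∆ library it ran from 123 for ARP2 to 374 for ARC15, a 3.03-fold range. Without ARC15 the range was 1.49-fold in the WT library and 1.82-fold in the gim3∆ library. The ARC35 to ARC15 ratio, between the subunits with the lowest and the highest ratio, was 1.47-fold lower in the gim3∆ library (1.40 to 1.55). ARP2 carries an intron, which the RefSeq length includes, so its density per coding length would be higher.

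**Figure D3:**
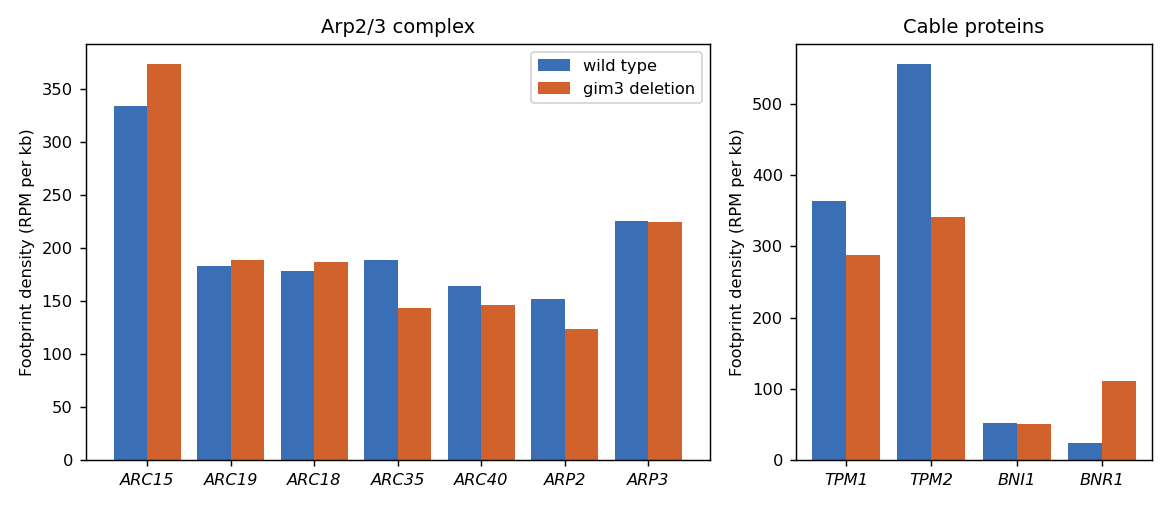
Footprint density (RPM per kb of gene length) of the 7 Arp2/3 subunits, ordered from the shortest to the longest gene, and of the 4 cable genes, with the WT library in blue and the gim3∆ library in orange. ARC15 is the densest subunit in both libraries, and BNR1 goes from 24.4 to 111 RPM per kb while BNI1 stays near 51.

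The cable genes held the largest difference of the 30. BNR1 encodes the formin of the bud neck in dividing cells, and BNI1 the formin of the bud tip. BNR1 had 101 RPM in the WT library (4067 reads) and 459 RPM in the gim3∆ library (12798 reads), 4.57-fold higher (4.41 to 4.73). Its log2 ratio of 2.18 (2.38 from the median gene) ranked 121st from the top among the 4916 genes, of which 312 were at least 2-fold higher. By RPM it moved from 1791st to 392nd of all named genes.

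BNI1 did not share this difference. It had 308 RPM in the WT library and 296 RPM in the gim3∆ library, a ratio of 0.961 (0.935 to 0.989), and its log2 ratio of -0.06 is 0.15 when centred on the median gene. Per kb of length, BNR1 had 0.464 times the footprint density of BNI1 in the WT library and 2.20 times that density in the gim3∆ library. The BNR1 to BNI1 ratio was thus 4.75 times as high in the gim3∆ library (4.54 to 4.97). The order of the formins by density was reversed between the libraries.

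The genes next to BNR1 on the chromosome did not show its difference. POT1, on one side, had 371 RPM in the WT library and 303 RPM in the gim3∆ library. AIM20, on the other side, had only 2.47 and 3.05 RPM, a ratio of 1.23 (0.913 to 1.66). BNR1 does not overlap another gene of the RefSeq table, nor does any of the other 29 genes.

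The tropomyosins, which coat and steady cable filaments, were both lower in the gim3∆ library, as were 64.5% of all genes compared. Centred on the median gene, their log2 ratios were -0.13 for TPM1 and -0.49 for TPM2. TPM1, the major form, had 218 RPM in the WT library and 173 RPM in the gim3∆ library, 1.26-fold lower (1.22 to 1.31). TPM2, known as the minor form, had 271 and 166 RPM, 1.63-fold lower (1.57 to 1.68). The TPM2 to TPM1 footprint ratio was 1.29-fold lower in the gim3∆ library (1.23 to 1.35). In density TPM2 nevertheless exceeded TPM1 in both libraries, at 557 against 364 RPM per kb in the WT library and 342 against 288 RPM per kb in the gim3∆ library. With values on both sides, the cable group's median log2 ratio was -0.20, and its mean was 0.27 because of BNR1.

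The myosins lay within 1.5-fold in both directions, while 12.0% of all genes were past it on the higher side and 22.6% on the lower. MYO2, the essential type V motor that carries vesicles and organelles along cables, had 413 RPM in the WT library and 359 RPM in the gim3∆ library. Its ratio was 0.868 (0.846 to 0.889), almost that of the median gene. MYO4, the type V motor that carries mRNA to the bud, had 67.8 and 63.3 RPM, a ratio of 0.933 (0.878 to 0.991). MYO2 was the denser of these motors in the WT library, at 87.5 against 15.4 RPM per kb, and the MYO4 to MYO2 ratio changed by a factor of 1.08 (1.01 to 1.15).

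The type I motors of the patch, MYO3 and MYO5, are close paralogs, and reads that match both genes may have been divided arbitrarily. MYO3 had 182 RPM in the WT library and 134 RPM in the gim3∆ library, 1.36-fold lower (1.31 to 1.42). MYO5 had 121 and 97.8 RPM, 1.24-fold lower (1.18 to 1.30). Both were lower as deposited, as were the 9 patch genes and 64.5% of all genes compared. Centred on the median gene, their log2 ratios were -0.24 for MYO3 and -0.10 for MYO5. MYO1, the type II motor of the cytokinetic ring, was the scarcest of the 30 genes per length, at 6.09 and 8.18 RPM per kb. It had 35.2 RPM in the WT library and 47.3 RPM in the gim3∆ library, a ratio of 1.34 (1.25 to 1.45), the second highest of the 30 after BNR1. The median log2 ratio of the myosins was -0.20, equal to that of all genes at this precision.

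In order of footprint density, the top of the list was held by actin and its smallest partners in both libraries. ACT1 led with 1318 RPM per kb in the WT library and 1004 RPM per kb in the gim3∆ library. COF1 and PFY1 followed, with 658 and 622 RPM per kb in the WT library, and in the gim3∆ library PFY1 had 653 and COF1 414 RPM per kb. ACT1, COF1 and PFY1 carry introns that the RefSeq lengths include, as SAC6 does, so these densities are too low and the order of COF1 and PFY1 within a library is uncertain. The lowest places went to MYO1 and MYO4 in both libraries. Across the 30 genes, which are not replicates, the densities of the libraries had a Spearman correlation of 0.93. BNR1 moved from 28th to 19th place and SRV2 from 8th to 18th.

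**Figure D4:**
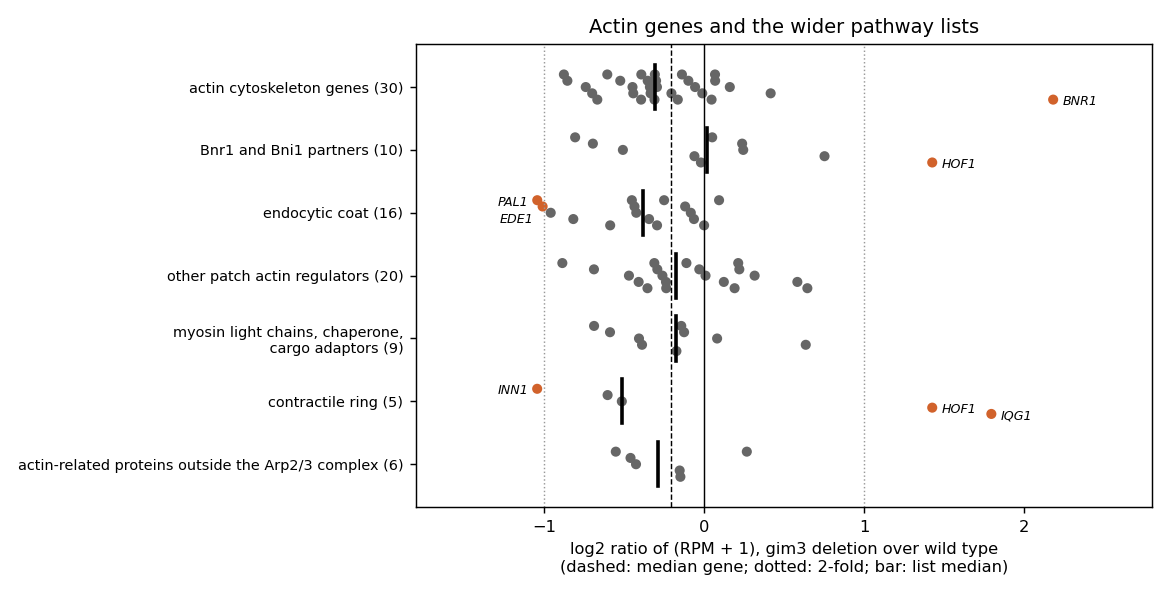
Log2 ratio of RPM plus 1, gim3∆ over WT, for the 30 actin genes and for each of 6 wider lists (number of measured genes in brackets); the short bars are list medians, the dashed line is the median gene and orange points are past 2-fold. IQG1 and HOF1 are the only measured genes of the wider lists at least 2-fold higher, while PAL1, EDE1 and INN1 lie just past 2-fold on the lower side.

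The rest of the actin pathway was followed through 6 further lists with 69 genes, of which 65 were measured. By the 2-fold rule 2 were higher and 3 lower (6.35% and 8.50% of all genes), and their median log2 ratio was -0.24. Centred on the median gene, 2 were higher and 0 lower (8.30% and 5.21% of all genes). The genes just past 2-fold on the lower side were therefore at the edge of the rule.

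Genes of the contractile ring, which closes the neck between dividing cells, included the highest of these. IQG1, the IQGAP scaffold that gathers actin into the ring, had 21.9 RPM in the WT library and 78.3 RPM in the gim3∆ library, 3.58-fold higher (3.31 to 3.88). HOF1, an F-BAR protein of the ring that also restrains Bnr1, had 13.8 and 38.8 RPM, 2.81-fold higher (2.53 to 3.11). Of the same list of 5, INN1 was 2.22-fold lower (1.88 to 2.63), from 14.7 to 6.60 RPM. INN1 and YCK2 are the genes on either side of the deleted gene GIM3, and the part of this position was not tested. CYK3 and BNI5 had log2 ratios of -0.51 and -0.60, so the list as a whole had no common direction and its median was -0.51. MYO1, the motor of this ring, lay on the side of IQG1 and HOF1.

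Of 10 listed partners of Bnr1 and Bni1, HOF1 was the 1 past 2-fold, against 6.35% of all genes higher and 8.50% lower. KEL2, a kelch protein that acts with Bud14 on Bnr1, had a ratio of 1.70 (1.58 to 1.84), from 32.5 to 55.4 RPM, whereas its relative KEL1 was 1.65-fold lower, from 35.1 to 21.3 RPM. BUD14 had a log2 ratio of -0.51 and SMY1, another regulator of Bnr1, 0.24. GIN4, a kinase of the bud neck, was lowest at 1.76-fold lower (1.66 to 1.87). BUD6 and SPA2, which act with Bni1 at the bud tip, had log2 ratios of 0.05 and -0.02. As a list, the partners had a median of 0.02, or 0.22 from the median gene.

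The endocytic coat, which forms before actin arrives at a patch, lay mostly lower in the gim3∆ library. Of its 16 genes 15 had a log2 ratio below 0, against 64.5% of all genes, with a median of -0.38 (-0.18 from the median gene) and 11 below the median gene. EDE1, a scaffold of the earliest coat, had 1307 RPM in the WT library and 649 RPM in the gim3∆ library, 2.01-fold lower (1.98 to 2.05). PAL1, another early coat protein, was 2.09-fold lower (1.95 to 2.24), from 78.3 to 37.5 RPM. The clathrin heavy chain gene CHC1 was 1.76-fold lower (1.73 to 1.79), from 1296 to 735 RPM, and the highest member, the adaptor gene YAP1801, had a log2 ratio of 0.09. Summed, the coat list took 0.428% of WT footprints (0.426 to 0.430) and 0.277% of gim3∆ footprints (0.275 to 0.279), 1.55-fold lower. That sum, 4284 RPM in the WT library and 2768 RPM in the gim3∆ library, rests largely on EDE1 and CHC1, the genes with the most footprints.

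Other patch regulators had no common direction. Of the 20 measured, 12 had a log2 ratio below 0 (60%, against 64.5% of all genes), and 10 lay on each side of the median gene. The highest was PIN3, a Las17-binding protein, with a ratio of 1.57 (1.52 to 1.61), from 245 to 384 RPM. The lowest was AKL1, a kinase of the coat, at 1.87-fold lower (1.74 to 2.02), from 63.7 to 34.0 RPM. VRP1, the verprolin that works with Las17 and the type I myosins, had 362 and 364 RPM.

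The 9 measured light chain, chaperone and adaptor genes of the myosins ran from MMR1 to MLC1. MLC1, a light chain shared by Myo1, Myo2 and Iqg1, had 77.7 RPM in the WT library and 121 RPM in the gim3∆ library, a ratio of 1.56 (1.49 to 1.64). MMR1, which ties mitochondria to Myo2, was 1.63-fold lower (1.51 to 1.75). SHE4, the myosin chaperone, was 1.51-fold lower (1.45 to 1.56), from 224 to 149 RPM, and the median of the list was -0.17. Actin-related proteins outside the Arp2/3 complex, most of which serve in chromatin remodellers, had 6 of 8 genes measured. None of the 6 was past 1.5-fold, against 12.0% of all genes higher and 22.6% lower. They ran from ARP7 at -0.55 to ARP6 at 0.27, with a median log2 ratio of -0.29.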

How the data were processed

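The deposited table holds 1 value per gene and library; the values are RPM by their sums, since per the file headers only time and genotype are named. Each deposited column sums to 1000000. Divided by the smallest value of its column, 100% of the values came out whole (tolerance 0.001), which gave the authors' read counts. Bowtie2, STAR and SAMtools were used, per the submitters' processing notes; the sources used here do not give their versions, the genome build or the handling of reads with several matches. Of 6678 lines, 86 without a gene name (0.121% of WT and 0.124% of gim3∆ reads) were left out of comparisons but are part of the deposited totals. The labels do not give the number of cultures behind a library.

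From the RPM values, log2 ratios were taken after adding 1 RPM, which understates differences of low genes. Folds and ratios of RPM have no pseudocount and carry exact (Clopper-Pearson) 95% intervals of the division of reads; PCR duplicates cannot be told apart, so they cover counting error only. A count model needs replicates and was not run. The intervals excluded 1 for 1487 genes above and 2861 below of 4916, which compares the 2 libraries and not the genotypes. Gene lengths and neighbours came from the RefSeq table of assembly R64, introns included, and 5844 names matched. No sequence was used. The members, lists and pairs were chosen with earlier results of these data known. Named genes were the 30 members, the wider genes past 2-fold and the highest and lowest of each list, and the others are examples chosen after their values were seen. Some of the pathway genes that were listed are not reported here and were left out of the counts. The steps were tested on simulated data. The tools were numpy 2.4.6, SciPy 1.17.1, pandas 2.3.3 and matplotlib 3.10.9 under Python 3.11.15. Alternatives covered the pseudocount (0.1 and 5 RPM), the filter (none and 50 RPM), 3 scalings and the mean in place of the median.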

Additional observations from a re-analysis of the deposited data

How the results depend on the processing

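The count of 1 actin gene past 2-fold, BNR1, held under all alternatives run. BNR1 had a log2 ratio of 2.38 both centred on the median gene and with a trimmed mean of log ratios. Those 2 scalings raise every log2 ratio by 0.20. The median of the 30 genes became -0.10 and -0.11, that of the turnover genes -0.24 and -0.25, that of the patch genes -0.15 and -0.15, and that of the Arp2/3 complex 0.19 and 0.19. The cable median became 0.0092 and 0.0061 and the myosin median 0.00046 and -0.0026, so the sign of the Arp2/3, cable and myosin medians depends on the scaling. Actin genes past 1.5-fold numbered 4 instead of 7 under both (2 higher and 2 lower, against 1 and 6 as deposited), and wider pathway genes past 2-fold numbered 2 instead of 5. With library totals without the middle meiotic markers, the medians were 0.031 for the Arp2/3 complex, -0.16 for the myosins and -0.40 for the turnover genes. The mean over the 30 genes was -0.22, as BNR1 pulls it up. With a mean of at least 50 RPM, MYO1 was left out and the myosin median was -0.26, and 3 wider genes passed 2-fold. A pseudocount of 5 RPM also left 3 wider genes. The other 46 results under an alternative stayed within counting error or within 1.5 times the count. No paired analysis was possible because each genotype has 1 library. Counting error was small for the 30 genes, and variation between cultures was not measured.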

Other observations

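ARP10, an actin-related subunit of the dynactin complex, lay below the filter but had a higher ratio than any of the 30 actin genes. It had 2.75 RPM in the wild-type library, from 111 reads, and 16.5 RPM in the gim3 deletion library, from 461 reads, a ratio of 6.03 (4.89 to 7.48). ARP1, the dynactin subunit of the same family and also below the filter, had 11.1 and 8.68 RPM. Their difference in direction was not tested over cultures.

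Across gene lengths, the 9 actin genes of at least 3000 bases had a median log2 ratio of -0.20, against -0.30 for the 439 genes of that length. The 7 members of 1500 to 3000 bases had a median of -0.52, against -0.21 for 1535 genes. In the shorter bins the medians were closer. They were 0.07 for 5 members and 0.04 for 661 genes under 600 bases. At 600 to 1500 bases they were -0.30 for 9 members and -0.25 for 2199 genes. Across the 30 genes the Spearman correlation of the log2 ratio was -0.05 with length and -0.27 with mean level, given as descriptions of genes that share 2 libraries.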
